A study of Homo sapiens with 6 samples.

Results

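In HCT116 cells given curcumin, 21 of the 35106 genes in the count table fell so far that the smallest count in untreated cells was at least 200 and at least 10 times the largest count after treatment. The 21 genes included TMEM177, an assembly factor of mitochondrial complex IV, and TIGD5, a gene derived from a DNA transposon, as well as the transcriptional inhibitor ID1, the Wnt receptor FZD2 with the ligand WNT6, the lipid receptor S1PR5 and the death adaptor FADD. Their transcripts were reduced rather than absent: after trimmed-mean scaling between libraries, each kept between 5.79% and 17.3% of its untreated level, with a median of 12.6%. The kept share depends on the scaling. With library size alone the fall was greater, with a median log2 fold change of −3.80 in place of −2.98. The coding sequence of 11 of the 21 lay in 1 exon, as it did in 3.97% of the other protein-coding genes with at least 200 counts in every untreated library. Genes whose symbols begin with FOX, HOX, HPS, IRF2BP, KLF, SOX, ZBTB or ZNF were set aside by name, which removed 5 genes that met both count limits. Since the genes were selected by their counts in this comparison, their fall is given as a description and no p-value is attached to it.

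The study compared 3 libraries of untreated cells with 3 libraries of cells exposed to curcumin, the yellow polyphenol of turmeric, for 24 h. HCT116 is a human colon carcinoma line, labelled wild type in both groups, and the labels write the dose as 30 μm, a unit that reads as micrometres and may stand for micromolar. All cells were grown in DMEM with fetal bovine serum and antibiotics, RNA was extracted after lysis in TRIzol, and libraries were made with a SMARTer mRNA-Seq kit. Untreated cells are labelled as given none, with no solvent named, and separate cultures are not stated for the replicates, so the spread behind each p-value may be technical.

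The amount of an mRNA in a cell reflects how fast it is made and how fast it is degraded, and RNA sequencing of bulk cells measures the outcome of both together. Most human genes are split by introns, and splicing leaves a protein complex near each exon junction that accompanies the mRNA out of the nucleus. Genes with an undivided coding sequence are a minority that holds many G-protein-coupled and Frizzled receptors, transposase-derived genes and genes copied from spliced RNA.

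Library totals ranged from 18154380 to 20311769 counts in untreated and from 16663562 to 17893056 counts in treated cells. The factors of trimmed-mean (TMM) scaling lay at 1.30 to 1.34 for untreated against 0.716 to 0.804 for treated libraries, so it raised treated levels relative to untreated ones, and with library size alone the median log2 fold change over all genes tested moved by −0.80. Levels below are counts relative to the TMM-scaled library size (CPM), and a log2 fold change compares curcumin with untreated cells and carries the standard error (SE) of edgeR's fit to 3 libraries a group. At a floor of 3 counts, a level is 0.114 to 0.123 CPM for untreated and 0.224 to 0.238 CPM for treated cells, a limit set by counting error only. In bulk RNA, fewer cells carrying a transcript and less of it per cell cannot be told apart. Of 10 epithelial markers, EPCAM, KRT8, KRT18 and KRT19 were higher and CLDN3, CLDN4 and CDX2 lower after curcumin. CDH1 and CLDN7 had no call (0.16 and 0.17) but were lower with library size alone (−0.65 and −0.64). VIL1 was at 0.204 and 0.526 CPM. The 10 summed to 4417 to 5105 CPM before and 7514 to 8700 CPM after treatment. Of these sums KRT8 supplied a mean of 1944 and 4657 CPM. With library size alone, KRT8 was still called higher (0.46), and EPCAM, KRT18 and KRT19 had no call (0.086, −0.12 and −0.19). Of 10 markers of other cell types, CD14 rose from 0.350 to 19.2 CPM and PECAM1 from 0.0936 to 14.9 CPM, CD3E was at 0 in every library, and the summed level was 27.4 to 33.3 against 36.3 to 95.8 CPM; the part of these in the fall of the 21 genes was not tested.

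The count limits were met by 26 genes, 0.275% of the 9455 genes with a smallest untreated count of at least 200, and 21 were left after the exclusions by name. All 21 are protein-coding, all passed the filter on low counts, and all 21 were lower by edgeR's quasi-likelihood test, where 28.9% of all 13718 genes tested were called lower; as the same counts chose the genes, nothing is read from this. Just inside the ratio limit stood MIEF2 at 10.06, A4GALT at 10.1 and FADD at 10.1, and just outside it HMGXB4 at 9.996, HS3ST1 at 9.74 and P3H4 at 9.71. Just inside the limit on the untreated count stood WNT6 with a smallest count of 203, S1PR5 with 226 and TRIM27 with 236, and just outside it, among genes that met the ratio, CICP14 with 180, PPP1R3D with 137 and AC018638.5 with 98. The limits apply to raw counts, and they depend on the scale. With counts scaled to equal library size 12 of the 21 genes still met them, and with TMM scaling 0 did, the ratio of smallest untreated to largest treated level then running from 4.90 to 10.2 with a median of 6.17; the one gene above 10 on that scale, S1PR5, no longer reached the limit of 200. Without untreated replicate 2, curcumin replicate 1 or curcumin replicate 3, 48, 40 and 50 genes met the limits. Leaving out a library can only loosen the limits, so all 21 were bound to be among them.

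Every untreated value lay above every treated value for all 21 genes on the TMM scale, as it did for 33.1% of all genes tested, again a property the choice of genes fixed. Log2 fold changes ran from −4.10 to −2.53 with a median of −2.98, against −0.037 over all genes tested. With library size alone the median was −3.80, against −0.84 over all genes. Leaving out the TMM factors shifts all genes by nearly the same amount, so the distance to the other genes was bound to stay nearly the same. The genes were not the most strongly reduced in the table: ordered by log2 fold change, they ranked from 20 to 188 among the falls, with 14 in the first 100. Together they made up 0.179%, 0.172% and 0.181% of all counts in untreated replicates 1 to 3 and 0.0128%, 0.0118% and 0.0138% after curcumin. ID1 supplied much of that, and without it the shares were 0.0959%, 0.0944% and 0.107% against 0.00732%, 0.00640% and 0.00656%. The order of the libraries varied between genes: the highest untreated value lay in replicate 1 for 4 genes, replicate 2 for 7 and replicate 3 for 10, and the highest treated value in replicates 1, 2 and 3 for 8, 6 and 7 genes. The spread within untreated cells exceeded 25% of the mean for ITPRIPL2 and WNT6 alone, both of them low in untreated replicate 2.

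**Figure D1:**
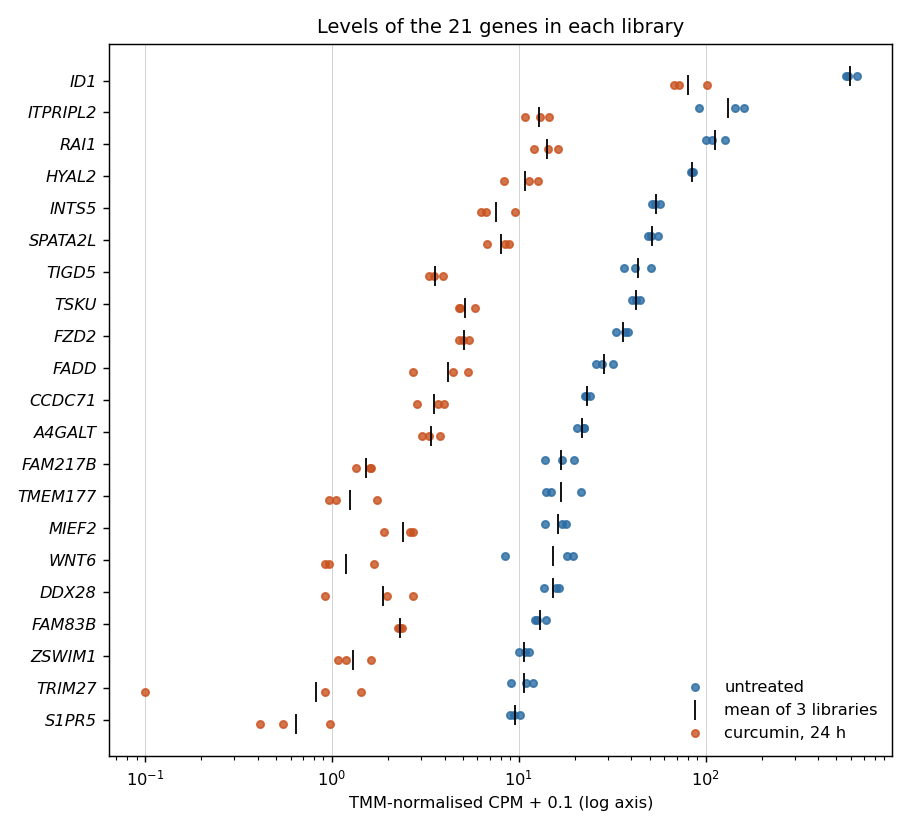
TMM-normalised CPM plus 0.1 (log axis) of each of the 21 genes, 1 point per library in blue for untreated and orange for curcumin, with a black tick at the mean of the 3 libraries. The groups stay apart in every row, the treated libraries of ID1 lie above the untreated libraries of 17 of the other genes, and TRIM27 has the widest treated spread because 1 library is at 0.

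**Figure D2:**
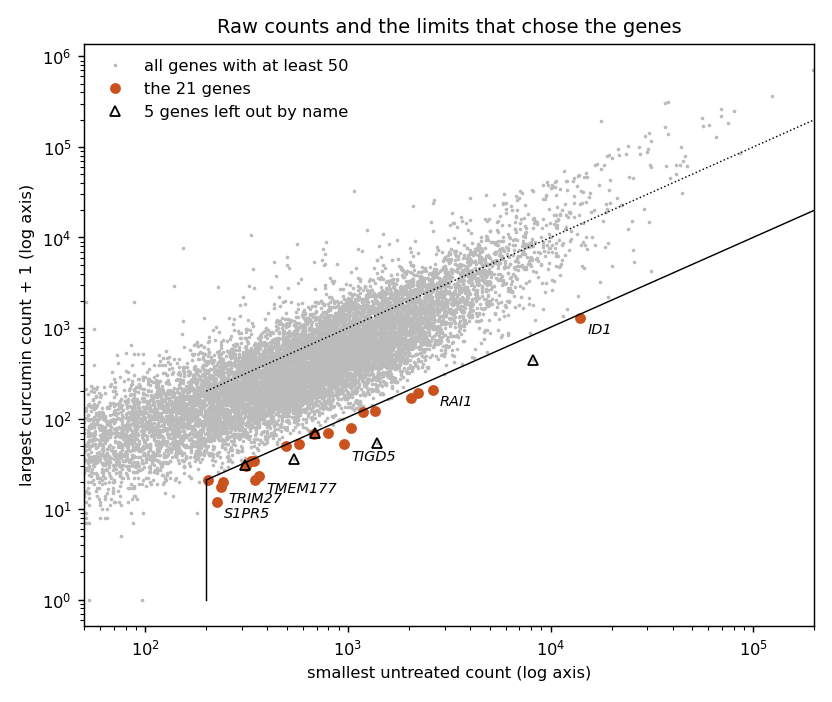
Smallest untreated count against largest treated count plus 1, both raw and on log axes, for each gene with a smallest untreated count of at least 50, with the 21 genes in orange and the 5 genes left out by name as triangles. The solid lines are the limits of 200 counts and a ratio of 10 and the dotted line marks equal counts; the 21 genes lie close under the sloping limit at the lower edge of the cloud.

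The sequences before the transcription start of ID1, S1PR5 and TMEM177 are printed to show the promoter type of a highly abundant gene, of the gene with the greatest fall and of a gene with 1 coding exon. They are from RefSeq on GRCh38.p14, end before the earlier of the RefSeq and GENCODE starts, and read 5′ to 3′ on the strand of the gene, with matches to the CCAAT box, the GC box core GGGCGG and the TATA box core TATAAA on either strand in capitals. The ID1 stretch is chr20:31605039-31605282 on the plus strand, that of S1PR5 chr19:10517966-10518215 on the minus strand and that of TMEM177 chr2:119678951-119679166 on the plus strand.
ID1: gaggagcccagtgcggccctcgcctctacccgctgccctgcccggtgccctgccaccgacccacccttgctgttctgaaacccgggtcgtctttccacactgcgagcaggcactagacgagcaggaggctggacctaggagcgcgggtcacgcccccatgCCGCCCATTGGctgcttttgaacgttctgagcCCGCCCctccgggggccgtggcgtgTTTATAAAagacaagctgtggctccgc
S1PR5: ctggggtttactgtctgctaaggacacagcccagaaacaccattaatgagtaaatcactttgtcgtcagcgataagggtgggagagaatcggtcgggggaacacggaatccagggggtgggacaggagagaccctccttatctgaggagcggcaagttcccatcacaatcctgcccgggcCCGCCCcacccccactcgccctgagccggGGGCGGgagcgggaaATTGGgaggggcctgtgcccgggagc
TMEM177: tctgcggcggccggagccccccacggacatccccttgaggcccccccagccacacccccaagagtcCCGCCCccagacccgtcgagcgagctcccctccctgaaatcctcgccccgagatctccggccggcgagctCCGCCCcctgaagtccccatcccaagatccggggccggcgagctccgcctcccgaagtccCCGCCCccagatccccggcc

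ID1 carries 1 CCAAT match, 2 GGGCGG matches and a TATAAA match on each strand that overlap each other, S1PR5 carries 1 CCAAT and 2 GGGCGG matches, and TMEM177 carries 3 GGGCGG matches. Windows from 250 bases before to 50 bases after the start were found for 16 of the 21 genes, and not for CCDC71, FZD2, INTS5, TIGD5 and TRIM27. GGGCGG was in the windows of 14 of the 16 genes (87.5%), in 81.0% of other genes with a smallest untreated count of at least 200 and in 48.3% of all genes with a window. CCAAT was in 9 (56.2%), against 43.5% and 39.7%, and TATAAA in 1, ID1 (6.25%), against 7.16% and 14%. CCGGAAG was found in 0 of the 16, against 24.5% and 12.2%, and the palindromic NRF1 motif in 0, against 2.83% and 1.52%. The median GC content of the windows was 66.7% for the 16 genes and 65.7% for the other genes. The windows of the 16 genes thus differed little in GC content and GC boxes from those of other expressed genes, and these matches are letters in a window and say nothing of binding.

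Among genes that act in the nucleus, ID1 was by far the most abundant. ID1 is a helix-loop-helix protein without a DNA-binding part that holds E proteins off DNA (chromosome 20, 31605283 to 31606515, plus strand, 2 exons). It had 16952, 14020 and 14222 counts in untreated replicates 1 to 3 and 908, 907 and 1295 counts after curcumin. That is 593 ± 43.9 CPM (SD, n = 3) in untreated and 80.4 ± 18.2 CPM in treated cells, a log2 fold change of −2.88 ± 0.18 (SE). Per kilobase of transcript ID1 stood at 597 CPM before and 80.8 CPM after treatment, and the treated level was still above the untreated level of each of the other 20 genes, which reached at most 22.1 CPM per kilobase. RAI1, a chromatin-associated regulator whose loss causes Smith-Magenis syndrome, had 2645, 2614 and 3205 counts and 160, 178 and 206 after curcumin (log2 −2.98 ± 0.18). All 3 treated libraries of RAI1 were alike, and its exons share 5.74% of their bases with SREBF1 on the opposite strand, which fell less (−0.56). INTS5, a subunit of the Integrator complex that cleaves small nuclear and paused transcripts, had 1353, 1386 and 1354 counts and then 83, 83 and 121 (−2.86 ± 0.20).

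TIGD5 encodes a protein derived from the transposase of a pogo-like element, and lies in a single exon. Its counts were 961, 1015 and 1295 in untreated and 51, 43 and 41 in treated cells, a ratio of 18.8 that only S1PR5 exceeded. In CPM, TIGD5 went from 43.0 ± 7.35 to 3.48 ± 0.309 (log2 −3.63 ± 0.21), with all treated libraries within a narrow range. Its exon shares 4.84% of its bases with EEF1D on the opposite strand, a gene that rose by 1.94, and whether counting used the strand is not stated.

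Receptors and secreted signals formed the next group. S1PR5, a G-protein-coupled receptor for sphingosine-1-phosphate (chromosome 19, 10512742 to 10517931, minus strand), had the highest ratio, 20.5. It had 246, 243 and 226 counts in untreated cells and 6, 11 and 4 after curcumin, or 9.41 ± 0.554 and 0.545 ± 0.292 CPM. Its log2 fold change of −4.10 ± 0.40 was the lowest of the 21, and the treated libraries stood only a little above the floor of 3 counts. FZD2, a membrane receptor for Wnt ligands encoded in a single exon, had 967, 798 and 973 counts and then 66, 59 and 68 (35.9 ± 2.81 and 4.98 ± 0.319 CPM, log2 −2.85 ± 0.18). WNT6, a secreted Wnt ligand, had 509, 203 and 456 counts and then 11, 20 and 11, so that untreated replicate 2 lay well under its fellows and brought the gene close to both limits. TSKU, a secreted leucine-rich proteoglycan that binds signalling ligands, had 1060, 1031 and 1127 counts and then 77, 60 and 60 (log2 −3.06 ± 0.18). The untreated counts of TSKU differed little between replicates, whereas those of WNT6 spread widely (log2 fold change −3.80 ± 0.42).

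HYAL2 and A4GALT encode enzymes that act on carbohydrate chains. HYAL2, a hyaluronidase anchored to the plasma membrane by a glycolipid, had 2208, 2036 and 2172 counts and 167, 142 and 105 after curcumin. Its level went from 84.3 ± 1.01 to 10.7 ± 2.20 CPM (log2 −2.98 ± 0.19), with almost no spread among untreated libraries. A4GALT, the galactosyltransferase that makes globotriaosylceramide, had 585, 495 and 564 counts and then 49, 37 and 41 (log2 −2.72 ± 0.21). TUSC2, which shares 11.2% of the exon bases of HYAL2 on the same strand, rose by 0.43, and the reads of the shared bases cannot be told apart.

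TMEM177, DDX28 and MIEF2 encode mitochondrial proteins. TMEM177 steadies COX20 during assembly of the COX2 subunit of complex IV (chromosome 2, 119679167 to 119686507, plus strand, 2 exons of which 1 is coding). It had 364, 520 and 377 counts in untreated cells and 22, 12 and 11 after curcumin, or 16.7 ± 4.11 and 1.15 ± 0.429 CPM (log2 −3.84 ± 0.33). Untreated replicate 2 was the high library and treated replicate 1 the less reduced one. DDX28, an RNA helicase needed to build the large mitochondrial ribosomal subunit, had 428, 382 and 342 counts and then 11, 33 and 24 (log2 −3.10 ± 0.36). Treated replicate 1 of DDX28 lay lowest, and DUS2, which covers 22.5% of the DDX28 exon on the opposite strand, also fell (−1.49). MIEF2, which draws the fission enzyme dynamin-related protein to mitochondria, had 470.0, 332 and 429 counts and then 24, 33 and 32 (log2 −2.80 ± 0.26).

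FADD, SPATA2L, TRIM27 and FAM83B act in cell-death, ubiquitin and kinase signalling. FADD, which joins death receptors to initiator caspases, had 677, 773 and 702 counts and then 58, 33 and 67 (28.4 ± 3.13 and 4.06 ± 1.33 CPM, log2 −2.80 ± 0.26). An antisense transcript, AP000879.1, covers 54.9% of the FADD exons and was not analysed here, and the reads of the shared bases cannot be told apart without the strand. SPATA2L, a relative of the adaptor SPATA2, had 1332, 1189 and 1404 counts and then 117, 84 and 107 (log2 −2.70 ± 0.18). FAM83B, a scaffold protein that binds casein kinases, had 320.2, 338 and 315 counts and then 29, 28 and 29, the smallest fall of the 21 (log2 −2.53 ± 0.24), with nearly equal treated counts. TRIM27, a RING-type ubiquitin ligase, had counts of 236, 262 and 299 and then 10.9, 0 and 16.6. It lies in the major histocompatibility region of chromosome 6 (28903002 to 28923989), where reads can be shared among copies. Its counts may be uncertain for this reason, which was not tested. They are fractional, but so are counts of most of the 21 genes (17 with a fractional value in some library). The count of 0 in treated replicate 2 allows up to 3 counts, and the SE of the TRIM27 fold change (log2 −3.85 ± 0.64) was the widest of the 21.

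Little is known of ITPRIPL2, CCDC71, FAM217B and ZSWIM1. ITPRIPL2, next in CPM after ID1, had 3799, 2221 and 4082 counts and then 193, 135 and 165 (132 ± 36.2 and 12.7 ± 1.87 CPM, log2 −3.38 ± 0.24). Its untreated replicate 2 was low, and the antisense transcript AC099518.5, not analysed here, covers 15.3% of its exon. FAM217B had 444, 478 and 346 counts and then 20, 19 and 16, a ratio of 17.3 (log2 −3.55 ± 0.27). PPP1R3D, which overlaps 2.31% of the FAM217B exons on the opposite strand, fell as well (−2.91). CCDC71 had 603, 581 and 574 counts and then 52, 45 and 35 (log2 −2.76 ± 0.22), and ZSWIM1, which holds a SWIM zinc finger, had 280, 242 and 284 and then 13, 19 and 14 (−3.15 ± 0.30). The coding sequence of each of these 4 genes lies in 1 exon.

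Gene structure was not used to choose the genes, and most of the 21 were alike in it. In GENCODE release 29 models, taking the transcript with the longest coding sequence, 11 of the 21 genes had 1 coding exon, against 372 of the other 9369 protein-coding genes with a smallest untreated count of at least 200 (52.4% against 3.97%). These 11 were A4GALT, CCDC71, DDX28, FAM217B, FZD2, ITPRIPL2, S1PR5, TIGD5, TMEM177, TSKU and ZSWIM1, and 4 of them, DDX28, FZD2, ITPRIPL2 and TIGD5, had no intron at all (19% against 1.47%). At most 2 coding exons were found in 15 of the 21 (71.4% against 8.03%), with FADD, ID1, INTS5 and SPATA2L having 2. HYAL2 had 3 and FAM83B, MIEF2, RAI1 and WNT6 had 4, which brought the share with at most 4 to 95.2%, against 19.6%. TRIM27 was the exception with 8. The median number of coding exons was 1, against 9 in the other genes. No test was made of these shares.

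The largest coding exon held more than the remainder of the coding sequence in 19 of the 21 genes (90.5% against 18.2%). For the 11 genes with 1 coding exon this holds by definition, so the share in part restates the exon counts. With 2 coding exons, 1 of them must hold at least as much as the other. Among the genes with several coding exons, it held 97.3% of RAI1, 97.4% of INTS5, 91.6% of ID1, 76.2% of SPATA2L and 75.8% of FAM83B. It also held 75.4% of MIEF2, 64.9% of HYAL2 and 54.2% of FADD. WNT6 and TRIM27 were the exceptions, at 41.9% and 38.5%. The introns together spanned less than 4000 bases in 16 genes (76.2% against 12.4%), with RAI1 at 122319 and FAM83B at 92085 bases far above the rest. The coding sequences themselves were of ordinary length, with a median of 1401 bases against 1452, and transcripts were shorter, 2441 against 3267 bases. The median GC content of the coding sequence was 63.7% against 52.6%, and 16 of the 21 lay at 60% or more (76.2% against 24.4%). TIGD5 had the highest GC content at 72.8%, and FAM83B and FAM217B the lowest at 40.2% and 47.2%. The pentamer ATTTA, the core of AU-rich decay elements, was absent from the 3′ untranslated region of 15 of the 21 genes (71.4% against 32.3%). FAM217B and ITPRIPL2 held 6 copies each. The 3′ untranslated regions of the 21 genes had a median length of 917 against 1074 bases. Their median GC content was 49.9% against 43.2%, and the ATTTA share was not adjusted for length or GC content.

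**Figure D3:**
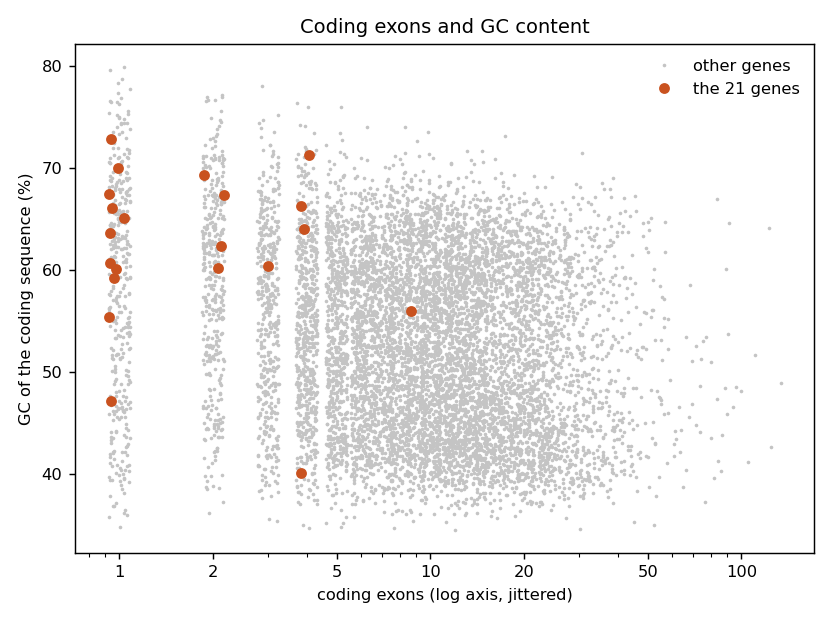
Number of coding exons (log axis, jittered) against GC content of the coding sequence in percent, with the 21 genes in orange and the other protein-coding genes with a smallest untreated count of at least 200 in grey. Of the 21 genes, 20 lie at 4 coding exons or fewer and 16 at a GC content of 60% or more, while the other genes centre on 9 coding exons and 52.6%.

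The fall with an undivided coding sequence was not limited to the 21 genes. Among the other 372 genes with 1 coding exon and enough untreated counts, the median log2 fold change was −1.09, and 67.7% were called lower and 11.3% higher, where 35.7% and 27.8% of all 9455 genes with enough untreated counts were called. These 372 include genes of the families set aside by name. Without those and the histone genes, 330 were left, with a median of −1.04, 67.3% lower and 11.2% higher. The median was −0.53 for genes with 2 coding exons, 0.022 for 3 to 4, 0.053 for 5 to 9, −0.097 for 10 to 19 and −0.36 for 20 or more, so the group with 1 coding exon lay lowest and the order was not even beyond it. The step was present in genes with no intron at all (−1.26, 135 genes without histone names) and in those with an intron outside the coding part (−1.02, 234 genes). The exception was the mitochondrial genome, whose 12 genes with enough counts had a median of 1.69 with 10 of them higher; without these and the histone genes the median was −1.14 and 70% were lower.

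Genes with 1 coding exon and genes with 5 or more also differed within groups by GC content and within groups by transcript length, each taken alone. In the lowest, middle and highest of 3 groups of like size by GC content, medians for 1 coding exon were −0.85, −1.13 and −1.24. For 5 or more they were −0.28, −0.084 and 0.12. In the short, middle and long groups by transcript length they were −0.55, −1.27 and −1.46 against 0.54, −0.052 and −0.63, so the medians of both classes were lower in longer transcripts. With all names kept in, 15 of 383 genes with 1 coding exon met the 10-fold limit (3.92%) and 11 of 9007 with more than 1 did (0.122%), and at a 5-fold limit these were 107 (27.9%) and 342 (3.80%). These medians and counts come from the same comparison that selected the 21 genes and are a description.

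**Figure D4:**
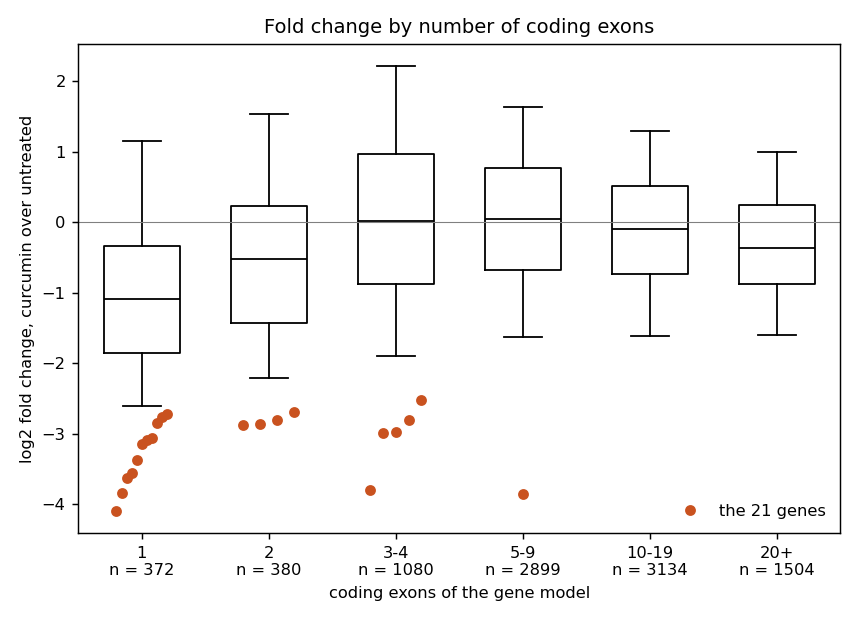
Log2 fold change of curcumin over untreated by number of coding exons for the other protein-coding genes with a smallest untreated count of at least 200 (boxes show quartiles and median, whiskers the range from percentile 5 to percentile 95, n the number of genes), with the 21 genes as orange points. The box for 1 coding exon is centred on −1.09 and the boxes from 3 coding exons on between −0.36 and 0.053, and 11 of the 21 points stand over the leftmost box.

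Relatives and partners of the 21 genes, from lists drawn up after the counts were seen, fell together in some families and not in others. Across all genes tested, 28.9% were called lower and 27.2% higher. All 8 other Frizzled receptors tested were lower, with a median of −2.08, from FZD6 at −0.99 to FZD8 at −3.04, a gene of 11 to 35 counts in untreated libraries. FZD3 and FZD6 have 6 coding exons, and FZD4 has 2. Of 13 other Wnt ligands tested, 4 fell (WNT3, WNT7B, WNT9A and WNT16) and 0 rose, and the rest did not pass the test. S1PR2, the only other sphingosine-1-phosphate receptor with enough counts, fell from 15.3 to 2.50 CPM (−2.62, edgeR adjusted p = 0.00027). Among the relatives of ID1, ID3 fell from 219 ± 12.9 to 64.4 ± 27.3 CPM (−1.77), while ID2 stood at 139 ± 17.6 and 134 ± 16.5 CPM (−0.050, edgeR adjusted p = 0.80) and ID4 at 1.08 and 0.805 CPM did not pass the test. ID2 was called lower with library size alone (−0.86). CCDC71L, the paralogue of CCDC71, fell (−1.90). Of the relatives of ITPRIPL2, ITPRIPL1 fell (−1.66) and ITPRIP did not pass the test (−0.19), and beside RAI1, its relative TCF20 fell (−1.10) and its partner PHF14 did not pass (0.0089).

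Partners of FADD in death receptor signalling mostly fell with it: 7 of 9 tested were lower and 0 higher, with a median of −1.04. CASP8, the caspase that FADD recruits, fell by 1.97 ± 0.26 on the log2 scale, TNFRSF1A by 1.77 and TNFRSF10B by 1.71, whereas FAS (−0.27) and CASP10 (−0.73) did not pass the test. The subunits of Integrator were mixed. Of 12 other subunits tested, 4 were lower and 3 higher (INTS1, INTS11 and INTS12), and the deepest, INTS9 at −0.96, lay far above INTS5 at −2.86. With library size alone 0 of the 3 were higher and 8 subunits were lower. SPATA2 rose by 1.07 and its partners CYLD and SHARPIN by 0.91 and 0.77 while SPATA2L fell, and 0 of the 3 were higher with library size alone (0.23, 0.084 and −0.028). Its partners RNF31 (0.056) and RBCK1 (0.47) did not pass the test. Of the other fission factors, FIS1 rose by 1.21 and MFF by 0.85, and MIEF1 (−0.56) and DNM1L (0.043) did not pass the test; with library size alone FIS1 was higher (0.40) and MFF did not (0.047). Of 4 other hyaluronidases and related proteins tested, with a median of −0.0012, HYAL3 and CEMIP rose by 0.84 and 0.60, and HYAL1 (−0.60) and CEMIP2 (−0.74) did not pass the test; with library size alone HYAL3 and CEMIP lay at 0.050 and −0.20 with no call, and 2 of the 4 were lower. Of 6 other FAM83 genes tested, FAM83D and FAM83H fell by 1.02 and 1.83, FAM83F fell as well, and FAM83E rose from 0.185 to 6.71 CPM. FAM83A (0.36) and FAM83G (−0.30) did not pass the test.

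Of 5 other enzymes of the pathway of A4GALT, 3 fell and 0 rose, with a median of −0.66: B4GALT5 (−1.53), B4GALT6 (−0.63) and B3GALT5 (−2.62) fell, and UGCG (0.23) and B3GALNT1 (−0.66) did not pass the test. Of 7 other ZSWIM genes tested, with a median of −0.087, ZSWIM3, ZSWIM4 and ZSWIM5 fell by 2.14, 2.10 and 1.91 beside ZSWIM1. ZSWIM7 rose by 0.55, which turned to −0.25 with library size alone. ZSWIM6 (0.024), ZSWIM8 (−0.047) and ZSWIM9 (−0.087) did not pass the test. Of 6 other helicases and GTPases of mitochondrial ribosome assembly, DHX30 and GTPBP10 fell (−0.51 and −1.15) and NOA1 rose (0.88; 0.075 with library size alone).

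**Figure D5:**
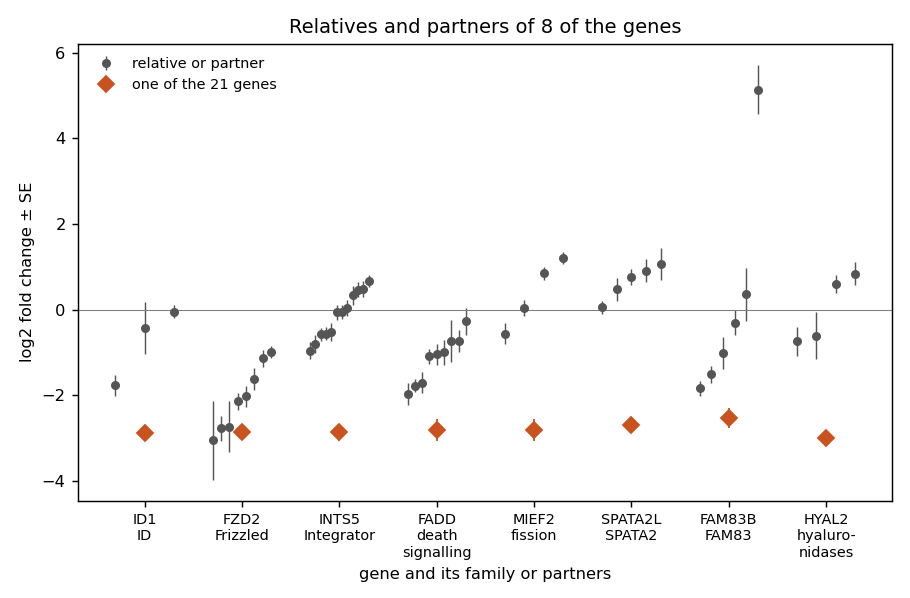
Log2 fold change of curcumin over untreated ± SE for 8 of the 21 genes (orange diamonds) and for the tested members of their families or partner groups (grey points, in order of fold change within each group). All 8 Frizzled receptors and 7 of 9 partners of FADD were called lower, while points of the Integrator, fission and SPATA2 groups lie on both sides of 0 or above it, where with library size alone 0, 1 and 0 of these groups' members were called higher.

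The 12 gene lists of related kinds drawn up for the comparison held TIGD5, TMEM177 and ID1 once each. Of 9 other tested genes derived from pogo-like elements, 5 fell (CENPB, JRK, POGK, POGZ and TIGD2) and 1, TIGD3, rose, with a median of −1.64; TIGD3 was not called with library size alone (0.72). JRK, with 1 coding exon, went from 26.3 to 4.40 CPM and TIGD2, also with 1, from 13.6 to 2.31 CPM, whereas POGZ, with 18, fell by 1.97. Of 24 other complex IV assembly factors, 8 were lower and 6 higher around a median of 0.12, beside the fall of TMEM177 by 3.84. SCO1 and COA7 fell by 1.65 and 1.59, and OXA1L and COX17 rose by 1.11 and 1.94, with no call for OXA1L under library size alone (0.31). Of 27 other genes with short-lived mRNAs, 11 were lower and 5 higher (median −0.34), with IER5L and BTG2 falling by 2.69 and 2.29 and PPP1R15A and FOS rising by 4.63 and 1.96. The other lists held none of the 21 genes. Other transposon-derived genes had 13 lower and 2 higher of 24, mitochondrial RNA enzymes 19 and 2 of 30, BTB and KCTD proteins 19 and 3 of 37, other zinc finger factors 22 and 3 of 38, and sulfo- and glycosyltransferases 23 and 2 of 30. Polycomb complex genes had 5 lower and 5 higher of 18, which became 13 and 2 with library size alone, and signalling adaptors 7 and 3 of 17, which became 10 and 0. The complex IV list, TMEM177 included, went from 9 lower and 6 higher to 14 and 1 in the same way. The pogo-like list, TIGD5 included, went from 6 and 1 to 9 and 0, and the short-lived list, ID1 included, from 12 and 5 to 21 and 2. Other transposon-derived genes went to 18 and 1, mitochondrial RNA enzymes to 27 and 0, and other zinc finger factors to 29 and 0. BTB and KCTD proteins went to 28 and 0, and sulfo- and glycosyltransferases to 28 and 0. In all, TIGD5, TMEM177 and ID1 left aside, 135 of 267 list genes tested were lower and 38 higher. Of all genes tested, 28.9% were lower and 27.2% higher, and of those with at least 200 counts in every untreated library 35.7% and 27.8%. The lists were chosen with earlier results of these data known, so nothing is read from the difference. With library size alone, and with TIGD5, TMEM177 and ID1 included, 203 list genes were lower and 9 higher.

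The genes around the 21 moved in both directions, as did genes over the whole table. The 21 genes lie on 10 chromosomes, and none is the nearest tested neighbour of another. Of their 42 nearest tested neighbours, 16 were lower and 12 higher, with a median log2 fold change of −0.40 and a median distance of 28388.5 bases. Over all genes tested, 28.9% were lower and 27.2% higher, and over those with at least 200 counts in every untreated library 35.7% and 27.8%. Nothing particular to the neighbours is read from their counts. EEF1D, which overlaps TIGD5, rose by 1.94, GANAB, 122 bases from INTS5, by 1.30 and HM13 next to ID1 by 1.29. WNT10A, 6130 bases from WNT6, did not pass the test (0.27 ± 0.51). ZSWIM3, 2105 bases from ZSWIM1 on the same strand, fell by 2.14. Neighbours of TMEM177, at 73124 and 240647 bases, were lower (PTPN4 −0.67 and TMEM37 −1.52).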

How the data were processed

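RNA sequencing of HCT116 cells gave 6 libraries, 3 untreated and 3 treated with curcumin, grouped by the labels. The authors deposited 1 table of estimated counts per gene that are not scaled between libraries; 17 of the 21 genes have a fractional value. No source used here gives the aligner or the counting tool. GRCm38 and mm10, both mouse builds, appear in the submitters' processing notes, but the table's identifiers are human and were read as such. Whether counting used the strand is not stated.

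Members were found by the count limits on values as deposited. Estimated counts were then rounded to whole numbers, filtered with filterByExpr (minimum count 10, minimum total 15), scaled by TMM and fitted over the whole table with edgeR 4.0.16's quasi-likelihood test (R 4.3.3, Benjamini-Hochberg adjusted p under 0.05, no covariate). The fit was tested on simulated data. Replicates differed by more than sampling noise (chi-square per degree of freedom 11.1 to 71.2). Same-numbered libraries had correlated deviations of 0.040, 0.023 and 0.11, not all over 0.1, so the numbers were not taken to pair them.

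Structure came from GENCODE release 29 (9390 of 9399 protein-coding genes with a smallest untreated count of at least 200 matched) and promoter windows from RefSeq (GRCh38.p14). Alternatives were RLE factors, library size alone, no filter, DESeq2 1.42.0, a replicate block, each library left out, other count limits and another transcript choice. The members and lists were chosen with earlier results of these data known. Named genes were all members by role, genes at the limits, and up to 2 rising and 2 falling genes of a list by adjusted p; relatives, partners, neighbours and the remaining pogo-like genes were chosen after their values were seen.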

Additional observations from a re-analysis of the deposited data

How the results depend on the processing

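The 21 fold changes were recomputed under 12 other settings; their direction and calls were fixed by the count limits that chose the genes, so that 0 of 252 changed sign and 21 were called throughout says nothing of stability. Library size alone gave 1320 genes higher and 7744 lower in place of 3732 and 3964, 9 list genes higher in place of 38, and a member median of −3.80. Leaving the 100 most abundant genes out of the library size, a setting chosen after seeing the data, gave 2635 higher and 5465 lower, 21 list genes higher and a member median of −3.32. DESeq2 called 4384 higher and 3892 lower. The number of genes meeting the limits was 12 with counts scaled to library size, 0 with TMM scaling (so no shares could be given there), 12 at a minimum count of 400, 411 at a ratio of 5 and 1, S1PR5, at a ratio of 20. With a ratio of 5 the share with 1 coding exon was 22.1%. With 1 library left out, which loosens both limits by construction, 21 to 50 genes met them (48 without untreated replicate 2, 40 without curcumin replicate 1 and 50 without curcumin replicate 3), and 40.0% to 52.4% of those had 1 coding exon. The share was 42.9% with the transcript of most coding exons and, in settings chosen after seeing the data, 55.0% without TRIM27 and 57.7% with the left-out names kept in. Over the libraries left out, the member median ran from −3.08 to −2.88, genes called higher from 3253 to 3843 and lower from 3369 to 4306, and list genes higher from 29 to 38 and lower from 116 to 149. The replicate block gave 3683 higher, 4011 lower and a member median of −2.9996; since the numbers do not pair the libraries, it stands only as a variant. Genes of few treated counts, S1PR5, TRIM27, WNT6, DDX28 and TMEM177, carry the widest errors.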

Other observations

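The 5 genes that met both count limits but were set aside by name are regulators of transcription or, in 1 case, of lysosome-related organelles. HPS6, a subunit of the BLOC-2 complex, had a smallest untreated count of 1384 and a largest treated count of 53, a ratio of 26.1 that no gene of the 21 reached. SOX4, a transcription factor of progenitor cells, had 8134 and 446 (18.2), and the zinc finger gene ZNF469 had 544 and 35 (15.5). ZBTB39 stood close to the limit at 684 and 68 (10.06), as did ZNF500 at 310 and 29.8 (10.4). HPS6, SOX4, ZBTB39 and ZNF469 have 1 coding exon, and ZNF500 has 5. These values are a description of genes selected by the same counts.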
